A study of Mus musculus with 117 samples.

Results

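In mouse embryonic stem (ES) cells, 7925 of 14515 genomic regions with SUMO on chromatin had no SUMO peak in fibroblasts and no peak of the major marks of active promoters and enhancers or of heterochromatin. The regions were found by merging the peaks of SUMO-1 and SUMO-2 in ES cells wherever they shared 1 bp or more. A region was kept where it had no peak of either SUMO protein in mouse embryonic fibroblasts (MEF) and no 1 bp overlap with a peak of H3K4me3, H3K27ac or H3K9me3 in ES cells that carry no siRNA label. The regions were thus chosen by the called peaks of 7 lists, and they are called unmarked SUMO regions here by this rule alone. They made up 54.6% of all ES SUMO regions and 60.6% of the 13070 that were ES-only, that is, without SUMO in MEF. Of the other ES-only regions, 3001 lay on H3K9me3 and 2672 on H3K4me3 or H3K27ac, with 528 counted in both classes, and 1445 ES SUMO regions were shared with MEF.

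The series measured chromatin and RNA in wild type ES cells at passages 15 to 20, in MEF from E13.5 embryos at passage 1 and in MEF that had expressed OKSM, the Oct4, Klf4, Sox2 and Myc set used for reprogramming, for 4 days (D4). At D4 the cells carried a control short hairpin RNA (shCtrl) or one against Ubc9 (shUbc9), and a further pair of ES samples received a control small interfering RNA (siCtrl) or one against Ubc9 (siUbc9). The MEF and ES peak lists without such a label are wild type. By their labels, the MEF libraries used here for RNA carried shCtrl, and the ES libraries for RNA received siCtrl or siUbc9. Each of the 32 peak lists stands for the merged replicates of its antibody and condition, so a share has no replicate error. The exact 95% intervals given below cover the counting of regions only, and a difference between lists was not tested against replicates. The labels name no strain, line or separate culture for the ES replicates.

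SUMO is a small protein that is attached to lysines of other proteins by a cascade ending in the conjugating enzyme Ubc9. On chromatin it is known to modify transcription factors and co-repressors, among them the machinery that places H3K9me3 over retroviral repeats in ES cells. H3K9me3 marks heterochromatin, H3K4me3 marks promoters, H3K4me1 and H3K27ac mark enhancers, and H3K27me3 is the mark of Polycomb repression.

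RNA from the same cell types was used to check the cell type labels. The summed level of 8 ES markers, among them Pou5f1, Nanog and Zfp42, was 3131 to 3455 CPM (counts scaled to library size) in 3 ES siCtrl libraries, 2746 to 3270 CPM in 3 siUbc9 libraries and 1.30 to 1.45 CPM in 3 MEF shCtrl libraries. The summed level of 8 fibroblast markers was 65.0 to 80.7, 63.5 to 76.0 and 23025 to 27090 CPM in the same order. Single ES markers differed within that sum: Nanog was at 92.3 to 97.3 CPM in siCtrl and 44.7 to 51.5 CPM in siUbc9, Zfp42 at 345 to 398 and 232 to 259 CPM, and Esrrb at 199 to 202 and 136 to 153 CPM. For these 3 genes the siCtrl and siUbc9 libraries did not overlap, while those of Pou5f1, Sox2, Dppa5a, Tdgf1 and Lin28a overlapped. Among the fibroblast markers, Thy1, Twist2 and Fbln1 did not overlap either. The share of all genes without overlap was not counted, so these values describe the named genes only. Between the siUbc9 and siCtrl libraries of ES cells, 6986 of 17859 genes were called changed (39.1%; edgeR quasi-likelihood test), 3809 higher and 3177 lower in siUbc9.

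The unmarked SUMO regions were narrow and ranked below the middle of the SUMO lists, the latter like ES-only regions on H3K4me3 or H3K27ac. Their width ran from 282 to 2872 bp with a median of 555 bp, against 860 bp for ES-only regions on H3K9me3 and 839 bp for those on H3K4me3 or H3K27ac. Together they covered 4.87 Mb of the mm9 genome. Their median percentile by the authors' peak score was 43.5 in the SUMO-1 list and 42.9 in the SUMO-2 list, against 68.3 and 68.0 for ES-only regions on H3K9me3 and 45.8 in both lists for those on H3K4me3 or H3K27ac. The authors' fold enrichment per peak had a median of 6.93 for SUMO-1 and 7.21 for SUMO-2 over unmarked regions, of 8.84 and 9.10 over regions on H3K9me3, and of 6.57 and 6.84 over regions on H3K4me3 or H3K27ac. Only 11 of the 100 highest SUMO-1 peaks and 10 of the 100 highest SUMO-2 peaks lay in unmarked regions, against 44 and 39 in ES-only regions on H3K9me3 and 14 and 16 in those on H3K4me3 or H3K27ac. These values come from the lists that chose the regions and describe them only.

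SUMO-1 and SUMO-2 were called together in 4935 unmarked regions (62.3%, interval 61.2 to 63.3). A further 1760 (22.2%) had a SUMO-1 peak alone and 1230 (15.5%) a SUMO-2 peak alone. Both proteins were called in 67.3% of all ES SUMO regions and in 81.4% of ES-only regions on H3K9me3. Regions called for both were wider, with a median of 596 bp, than those called for SUMO-1 alone, with 476 bp, or for SUMO-2 alone, with 499 bp.

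The 8 regions called for both proteins with the highest mean percentile show what the strongest members look like. The first was chr11:115302527-115303409 (mm9, 883 bp), with percentiles of 99.9 in both SUMO lists, fold enrichments of 22.3 for SUMO-1 and 22.8 for SUMO-2, and a distance of 4.635 kb to the nearest peak of a mark used by the rule. The region chr13:61965977-61966695 had the highest fold enrichments of the 8, at 41.1 for SUMO-1 and 34.5 for SUMO-2, and lay only 0.292 kb from such a peak. The most isolated of the 8 was chr12:41327256-41328131, with fold enrichments of 35.8 and 28.8 and the nearest mark 153.174 kb away. The others were chr8:106889027-106890055, chr5:135825618-135826358, chr2:30803843-30804688, chr7:87099619-87100821 and chr9:31265848-31266749. Of the 8, only chr2:30803843-30804688 lay under a peak of any other list, an siCtrl H3K9me3 peak at percentile 31.7 of its list. The remaining 7 had SUMO and no other called peak.

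H3K9me3 was looked for in the siCtrl list, which comes from other libraries than the list of the rule. It held 1553 unmarked regions (19.6%, interval 18.7 to 20.5), against a background of 24.6% of all ES SUMO regions, of which the unmarked regions are themselves a part. The share was 52.5% (interval 50.7 to 54.3) in ES-only regions on H3K9me3 and 11.5% in those on H3K4me3 or H3K27ac. Unmarked regions thus lay between the 2 marked classes, and the 3 intervals did not overlap. The intervals of the 2 marked classes rest partly on the 528 regions they share. The rule removes regions with H3K9me3 in untreated ES cells, so a share below the background was in part fixed by the choice.

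**Figure D1:**
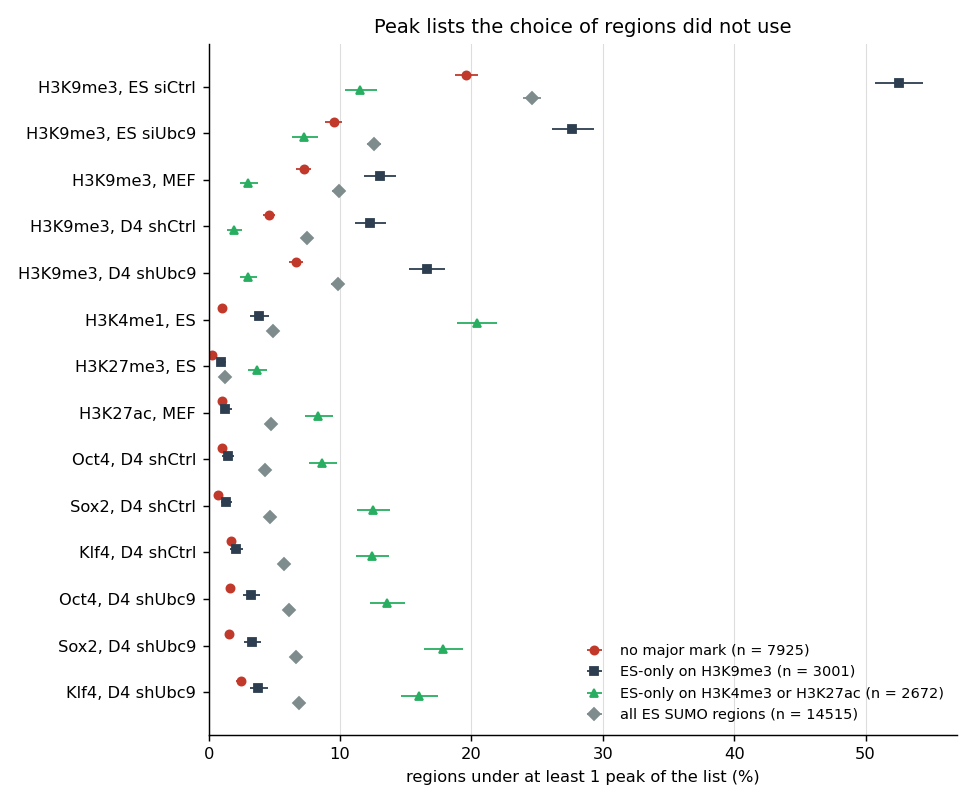
Share of regions (x axis, percent) under at least 1 peak of 14 lists that the rule did not use (y axis), for 4 classes of ES SUMO regions. Points are shares and bars exact 95% intervals. In the siCtrl H3K9me3 list, unmarked regions stand at 19.6%, between ES-only regions on H3K9me3 at 52.5% and those on H3K4me3 or H3K27ac at 11.5%. In the H3K4me1 and factor lists unmarked regions have the lowest shares by 1 bp overlap, which a wide region meets more easily. By the region centre, Klf4 of D4 shCtrl is at 1.31% over unmarked regions and 1.07% over ES-only regions on H3K9me3. In the H3K4me1 and other factor lists unmarked regions stay below ES-only regions on H3K9me3 by the centre.

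The 2 kinds of H3K9me3 list of ES cells differed from each other over the whole genome. The list of the rule had 8508 peaks and the siCtrl list 21492. Only 50.7% of the peaks of the rule's list overlapped an siCtrl peak, and 19.5% of siCtrl peaks overlapped a peak of the rule's list. Of the 1571 siCtrl peaks over unmarked regions, 152 (9.68%) also touched a peak of the rule's list beside the region. The submitters' processing notes name a further aligner, Bowtie2, for the siCtrl and siUbc9 samples. Its part in these differences was not tested.

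The siCtrl peaks over unmarked regions ranked below those over regions on H3K9me3 and near the middle of the list. Their median percentile was 48.8 and their median fold enrichment 5.65. Over ES-only regions on H3K9me3 these values were 59.0 and 6.04, and over all siCtrl peaks 49.8 and 5.69. In the highest quartile of the siCtrl list lay 20.7% of the peaks over unmarked regions and 29.7% of those over regions on H3K9me3. Peaks over ES-only regions on H3K4me3 or H3K27ac had a median percentile of 48.9, so the rank was not particular to unmarked regions. Over the whole siCtrl list, peaks that overlapped the rule's list had a median percentile of 64.5 and the others 46.5. The lower rank than over regions on H3K9me3 was thus in part fixed by the choice. With the siCtrl list reduced to its 8526 highest peaks, near the length of the rule's list, the share of unmarked regions under a peak was 7.31%.

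The siCtrl signal was centred on the SUMO region. The centre of an unmarked region lay in an siCtrl H3K9me3 peak in 18.4% of cases. The share was 10.7% at 0.5 kb from the centre, 6.56% at 1 kb, 3.65% at 2 kb, 2.07% at 5 kb and 1.61% at 20 kb. In the siUbc9 list it ran from 8.53% at the centre to 0.92% at 20 kb, and in the MEF H3K9me3 list from 6.04% to 0.40%. The list of the rule was at 0 at the centre by construction, at 2.13% at 1 kb and at 0.64% at 20 kb. Over ES-only regions on H3K9me3 the siCtrl share was also highest at the centre, at 48.9%, with 22.6% at 1 kb and 2.63% at 20 kb.

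**Figure D2:**
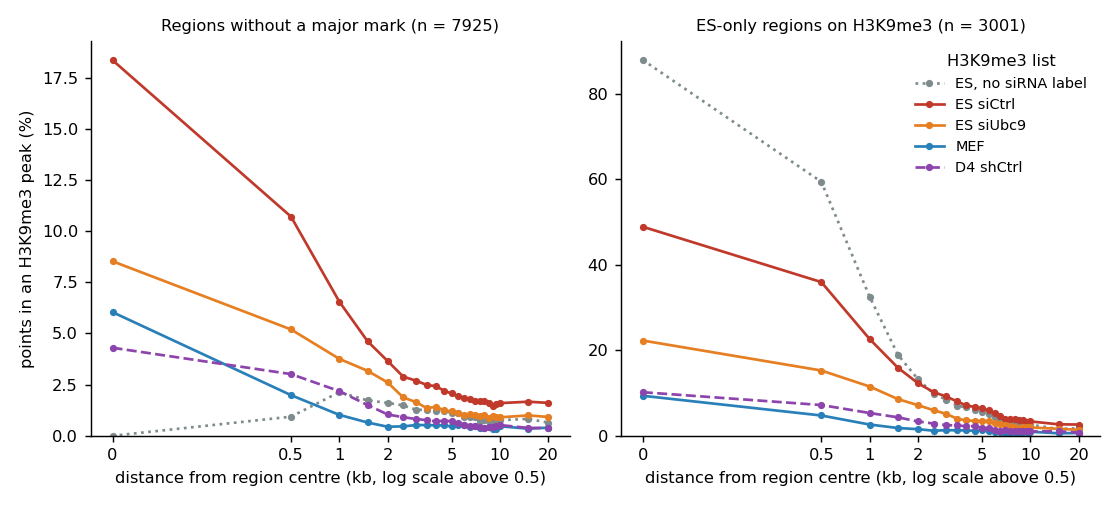
Share of points in an H3K9me3 peak (y axis, percent, with a different range in each panel) by distance from the region centre (x axis, kb, logarithmic above 0.5) for unmarked regions (left) and ES-only regions on H3K9me3 (right). Each line is 1 peak list. Over unmarked regions the siCtrl line falls from 18.4% at the centre to 1.61% at 20 kb, while the dotted line of the list used by the rule is at 0 at the centre.

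The share under siCtrl H3K9me3 is given by SUMO rank as a description, since the SUMO lists chose the regions. Regions called for both SUMO proteins were split into quartiles by their mean SUMO percentile, and the centre of the region was used so that a wide region did not count more easily than a narrow one. The centre lay in an siCtrl peak in 19.0%, 17.9% and 20.7% of the 3 lower quartiles and in 27.1% (interval 24.6 to 29.6) of the highest. The interval of the highest quartile did not overlap those of the others. For siUbc9 the 4 values were 9.08%, 7.94%, 9.08% and 10.2%, with overlapping intervals. A difference between siCtrl and siUbc9 by quartile was not tested. The split was made over unmarked regions only, so these values are not shown to be particular to them. Regions with a SUMO-1 peak alone had an siCtrl share of 12.2% at the centre and those with a SUMO-2 peak alone 15.9%, against 21.2% where both proteins were called. For siUbc9 these 3 values were 6.14%, 9.76% and 9.08%.

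The share is also given by distance to the nearest peak of the H3K9me3 list of the rule, as a description, since that list chose the regions and its peaks partly coincide with siCtrl peaks. The centre lay in an siCtrl peak in 48.4% of 442 unmarked regions within 1 kb, 31.7% of 731 at 1 to 10 kb, 17.2% of 2538 at 10 to 100 kb and 13.6% of 4214 farther away. The MEF H3K9me3 list had 1.36% within 1 kb and 6.10% to 6.66% in the 3 farther classes. At the edge of the rule, 168 unmarked regions had a peak of the rule's H3K9me3 list within 200 bp, and 87 of them (51.8%) lay under an siCtrl peak. Just outside it, 78 regions had been removed for an overlap of at most 200 bp with H3K9me3 alone, and 43 of them (55.1%) lay under an siCtrl peak. For H3K27ac the regions just inside numbered 68 and those just outside 38, and for H3K4me3 they numbered 27 and 15.

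**Figure D3:**
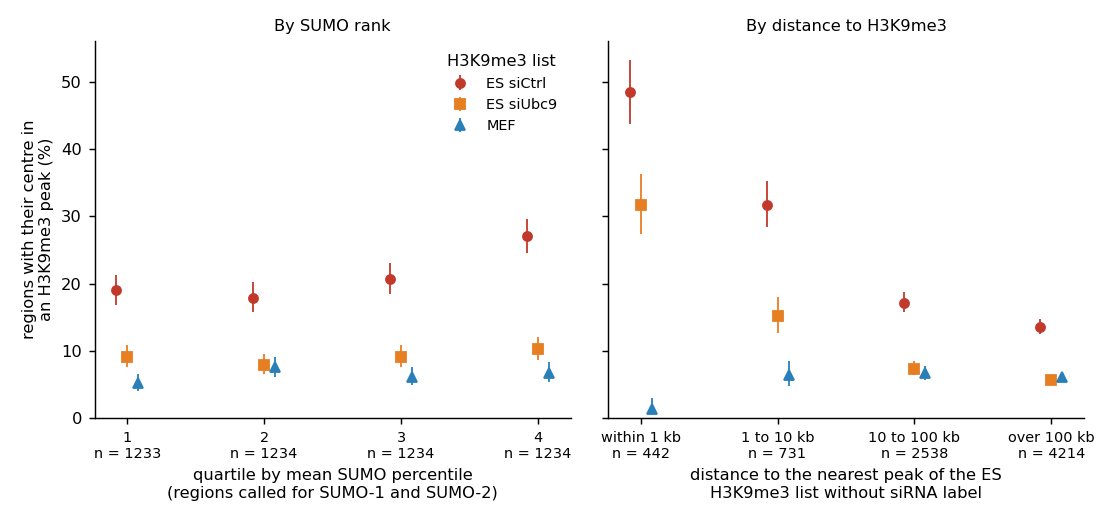
Share of unmarked regions whose centre lies in an H3K9me3 peak (y axis, percent) by quartile of mean SUMO percentile (left, quartile 4 highest) and by distance to the nearest ES H3K9me3 peak of the rule (right). Points are shares in 3 lists and bars exact 95% intervals. The siCtrl share falls from 48.4% within 1 kb to 13.6% beyond 100 kb.

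The 5 unmarked regions with the highest siCtrl H3K9me3 peaks ranged from low to upper-middle SUMO percentiles. The region chr17:21482378-21482726 (349 bp) had only a SUMO-1 peak, at percentile 13.4, under an siCtrl peak at percentile 99.8 with a fold enrichment of 16.1. The region chr14:18211132-18211439 (308 bp) had only a SUMO-2 peak, at percentile 16.5, and its siCtrl peak, also at percentile 99.8, had a fold enrichment of 18.4. The region chr12:61814311-61814945 had SUMO percentiles of 4.2 for SUMO-1 and 54.6 for SUMO-2, chr9:88902799-88903531 had 68.3 and 67.4, and chr7:27118385-27118853 had a SUMO-2 peak alone, at 20.7. Their siCtrl percentiles were 99.6 to 99.7. All 5 also lay under an siUbc9 peak, at percentiles 84.5, 4.6, 67.0, 65.0 and 67.0 of that list in the order named. Since the 5 were chosen for their siCtrl rank and the lists differ in length, these percentiles are not compared.

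Fewer unmarked regions lay under H3K9me3 in the siUbc9 list than in the siCtrl list. The siUbc9 list held 753 of them (9.50%, interval 8.86 to 10.2), against a background of 12.6% of all ES SUMO regions. Of the 1553 regions under an siCtrl peak, 667 (42.9%, interval 40.5 to 45.5) were also under an siUbc9 peak and 886 were not, against a background of 46.2% of all ES SUMO regions under an siCtrl peak. In the other direction, 667 of the 753 siUbc9 regions (88.6%) were under an siCtrl peak and 86 were not. ES-only regions on H3K9me3 had 788 of 1577 siCtrl regions also under siUbc9. The siUbc9 list was shorter as a whole, with 18745 peaks over 21.1 Mb, against 21492 peaks over 31.0 Mb in siCtrl. The read depth behind each peak list is unknown, so a peak missing from a list is not shown to be absent.

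Counted by peak, 726 of 1571 siCtrl peaks over unmarked regions (46.2%, interval 43.7 to 48.7) overlapped an siUbc9 peak, against 55.9% of all siCtrl peaks. The share rose with the score of the siCtrl peak, so it was compared within score quartiles of the siCtrl list. From the lowest quartile to the highest it was 10.9%, 29.4%, 58.9% and 93.5% over unmarked regions and 22.1%, 40.3%, 67.4% and 94.0% over all siCtrl peaks. The intervals did not overlap in the 3 lower quartiles and did in the highest. Peaks over ES-only regions on H3K9me3 had 13.9%, 30.8%, 54.9% and 82.5%, so the lower shares were not particular to unmarked regions.

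**Figure D4:**
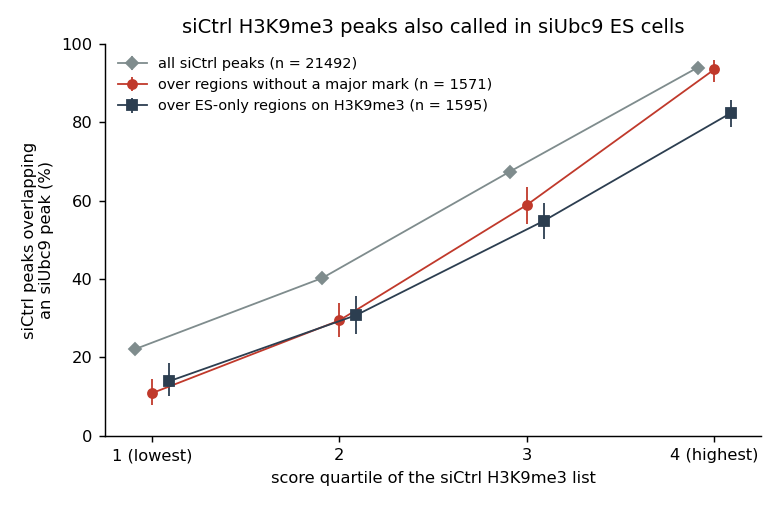
Share of siCtrl H3K9me3 peaks that overlap an siUbc9 peak (y axis, percent) by score quartile of the siCtrl list (x axis, quartile 4 highest). Points are shares over all siCtrl peaks, over unmarked regions and over ES-only regions on H3K9me3, with exact 95% intervals. In the lowest quartile the share is 10.9% over unmarked regions and 22.1% over all peaks.

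H3K9me3 outside ES cells covered a smaller set of unmarked regions. The MEF list held 572 (7.22%; background 9.88%), the D4 shCtrl list 364 (4.59%; background 7.44%) and the D4 shUbc9 list 525 (6.62%; background 9.81%). Together these 3 lists held 1003 unmarked regions (12.7%; background 16.5%). Over all ES-only SUMO regions the shares were 7.55%, 5.78% and 8.06% in the order named, and 13.8% together. The background also holds the regions shared with MEF, at 30.9% in the MEF list, which the rule removes. A share below the background was thus in part fixed by the choice. Of all unmarked regions, 242 (3.05%; background 6.37%) were under both 1 of these lists and an siCtrl peak. Of the 572 regions in the MEF list, 96 (16.8%, interval 13.8 to 20.1) were under an siCtrl peak. Outside the MEF list it was 1457 of 7353 (19.8%, interval 18.9 to 20.7). These 2 intervals overlapped. Over all ES SUMO regions the share was higher inside the MEF list, with 454 of 1434 (31.7%) against 3119 of 13081 (23.8%). Over ES-only regions on H3K9me3 the shares were 52.7% and 52.5%. The rule removes regions with H3K9me3 in untreated ES cells, so the values over unmarked regions do not describe SUMO regions in general. At D4, 249 regions were under H3K9me3 in both lists, 115 in shCtrl alone and 276 in shUbc9 alone. Over all ES SUMO regions these counts were 828, 252 and 596. The shUbc9 list was longer as a whole, with 5436 peaks against 4468, a ratio of 1.22, while the ratio was 1.44 over unmarked regions, 1.32 over all ES SUMO regions, 1.35 over ES-only regions on H3K9me3 and 1.55 over those on H3K4me3 or H3K27ac.

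Over the 5 H3K9me3 lists that the rule did not use, 2392 unmarked regions (30.2%; background 35.9%) lay under at least 1 peak. A single list covered 1297 regions, 2 lists covered 879, 3 covered 159 and 4 covered 50. The most common combinations were siCtrl alone with 717 regions, siCtrl with siUbc9 with 594 and MEF alone with 317. All 5 lists covered 7 regions (0.09%, background 0.61%), against 1.27% of ES-only regions on H3K9me3. The other counts by number of lists and by combination were not made over all ES SUMO regions. They describe the unmarked regions and are not shown to be particular to them. The 7 regions were named after their values were seen. Those with the highest SUMO percentiles among the 7 were chr10:128220898-128221620, at percentile 98.3 for SUMO-1 and 97.1 for SUMO-2, and chr5:34289628-34290496, at 94.2 and 93.3.

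Other marks of ES cells were rare. H3K4me1 covered 77 unmarked regions (0.97%; background 4.88%) and H3K27me3 17 (0.21%; background 1.27%). In ES-only regions on H3K4me3 or H3K27ac the H3K4me1 share was 20.4%. Because H3K4me1 peaks often lie beside H3K4me3 or H3K27ac, the low share was in part fixed by the rule. At 20 kb from the centre the share of points in an H3K4me1 peak was 1.06%, against 0.76% at the centre. Among the 5 regions with the highest SUMO percentiles under H3K4me1, chr5:30049240-30050309 also had an siCtrl H3K9me3 peak, and chr11:70168910-70170172 had H3K27me3 in MEF and in both D4 lists. Among the 5 under H3K27me3, chr9:50368734-50369858 ranked highest, at percentile 97.5 for SUMO-1 and 97.3 for SUMO-2.

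The binding of the reprogramming factors at D4 was likewise sparse. In shCtrl cells 79 unmarked regions were under an Oct4 peak (1.00%; background 4.28%), 56 under Sox2 (0.71%; background 4.70%) and 134 under Klf4 (1.69%; background 5.73%). At least 1 factor was called in 167 (2.11%; background 7.61%), and all 3 in 33 (0.42%; background 2.64%). Over ES-only regions on H3K9me3 these shares were 2.83% and 0.60%. They were 18.1% and 5.65% over those on H3K4me3 or H3K27ac, and 29.1% and 13.4% over regions shared with MEF. The rule removes these classes, so shares below the background were in part fixed by the choice. The centre lay in a Klf4 peak in 1.31% of unmarked regions and a point 20 kb away in 2.53%. For Sox2 the values were 0.54% and 1.68%. In all ES SUMO regions Klf4 ran the other way, with 4.64% at the centre and 2.61% at 20 kb. ES-only regions on H3K9me3 also had the lower share at the centre, with 1.07% and 1.82% for Klf4 and 0.73% and 1.52% for Sox2. A lower share at the centre was thus not particular to unmarked regions. The rule removes regions with H3K27ac in ES cells, and the factor lists come from D4 cells, so the shares describe 2 cell states.

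More unmarked regions lay under a factor peak in the shUbc9 lists of D4 than in the shCtrl lists. In shUbc9 cells the counts were 131 for Oct4 (background 6.08%), 123 for Sox2 (background 6.61%) and 193 for Klf4 (background 6.89%). At least 1 factor was called in 244 (3.08%; background 9.47%), of which 153 were shared with shCtrl and 91 were not, while 14 had a factor peak in shCtrl alone. Over all ES SUMO regions 1054 were shared, 320 were in shUbc9 alone and 51 in shCtrl alone. The ratio of shUbc9 to shCtrl regions was 1.66 for Oct4, 2.20 for Sox2 and 1.44 for Klf4. The lists as a whole also grew, by ratios of 1.40, 1.36 and 1.10, over all ES SUMO regions the ratios were 1.42, 1.41 and 1.20, and over ES-only regions on H3K9me3 they were 2.23, 2.54 and 1.82. H3K27ac at D4 covered 64 unmarked regions in shCtrl (background 4.24%) and 77 in shUbc9 (background 4.95%), and in MEF 82 (background 4.71%). The backgrounds of the factor and H3K27ac lists also hold the active and MEF-shared regions that the rule removes. Over ES-only regions on H3K9me3 at least 1 factor was called in 5.06% in shUbc9.

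Of the unmarked regions with all 3 factors in shCtrl cells, the 5 with the highest SUMO percentiles differed in their surroundings. The region chr4:142883358-142884059 (702 bp) had H3K4me1, H3K27ac and all 3 factors in both D4 conditions and no H3K9me3 peak. The region chr9:69306564-69306997 (434 bp) had H3K4me1 and H3K27ac in MEF as well as at D4. The region chr8:87334583-87335074 (492 bp) had H3K4me3 at D4 in both conditions. The region chr8:130138281-130139013 (733 bp) had the 3 factors in both conditions and no histone mark in any list, with the nearest mark of the rule 193.434 kb away. The region chr4:53304831-53305770 (940 bp) had the 3 factors in both conditions together with H3K9me3 in MEF, at D4 shUbc9 and in both siRNA lists of ES cells.

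Most unmarked regions had no other called peak. None of the 4 other ES lists, H3K4me1, H3K27me3 and H3K9me3 of siCtrl and siUbc9, covered 6196 of them (78.2%; background 68.7%). No list at all but those of ES SUMO covered 5099 (64.3%). The same count over all ES SUMO regions is 35.1%, made up of these regions alone, since the rule puts every other region under some other list. One other list covered 1434 regions, 2 covered 972, and the region under the most lists, which was noted after its values were seen, was under 14.

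The distance of unmarked regions from the marks of the rule is given as a description, since the rule removes regions that touch them. The median distance was 37.8 kb to the nearest H3K4me3 peak, 47.2 kb to H3K27ac and 114 kb to H3K9me3 of the rule. To the nearest of the 3 it was 15.9 kb, with 777 regions (9.80%) within 1 kb and 11.3% over 100 kb away. A neighbouring unmarked region lay within 10 kb of 1035 (13.1%), against 25.7% of ES-only regions on H3K9me3 and 15.2% of those on H3K4me3 or H3K27ac, each class counted within itself. The classes differ in size. The median gap between neighbours was 167 kb. Groups linked by gaps of at most 10 kb comprised 446 pairs, 39 triplets, 5 groups of 4 and 1 group of 6. The group of 6, chr9:72090611-72113245, spanned 22.6 kb, and 3 of its regions were under siCtrl H3K9me3, 3 under siUbc9 H3K9me3 and 1 under MEF H3K9me3.

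The X chromosome held few unmarked regions. Autosomes had 2.69 to 3.80 per Mb, with a median of 3.02, counting each chromosome up to its last peak in any list. Chromosome 2 was the lowest autosome and chromosome 8 the highest. The X chromosome had 152 regions, or 0.912 per Mb, below every autosome, and 10 lay on Y. All ES SUMO regions were at 1.21 per Mb on X, against an autosomal range of 4.77 to 6.98. H3K27ac peaks of ES cells were at 3.97 per Mb on X, against 7.24 to 16.9, and H3K9me3 peaks of the rule at 0.468 against 2.46 to 4.46. The siCtrl H3K9me3 peaks were at 7.45 per Mb on X, within their autosomal range of 5.77 to 10.1. Of the 202 SUMO regions of X, 75.2% were unmarked, above the autosomal range of 46.7% to 61.2%. Since the H3K27ac and H3K9me3 peaks of the rule were sparse on X, this higher share was in part fixed by the choice.

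**Figure D5:**
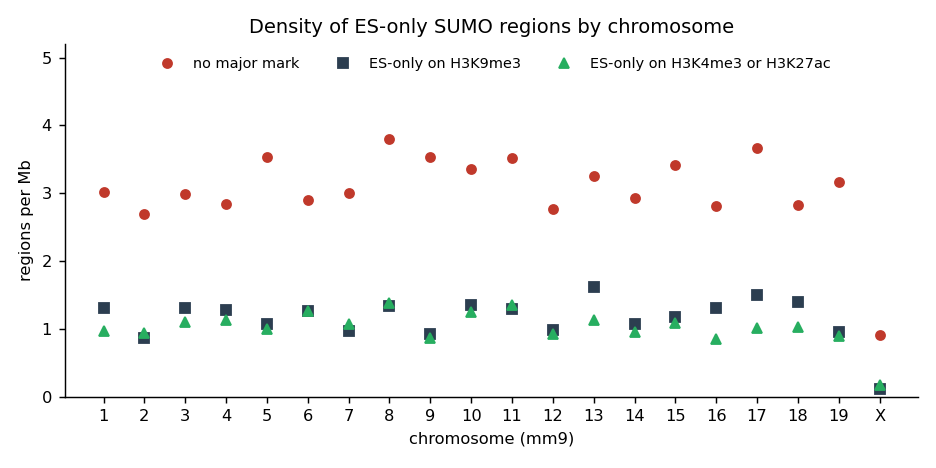
Regions per Mb (y axis) on each autosome and on X (x axis, build mm9) for unmarked regions and for ES-only regions on H3K9me3 and on H3K4me3 or H3K27ac. Each point is 1 class on 1 chromosome. Unmarked regions run from 2.69 to 3.80 per Mb on autosomes and stand at 0.912 on X, where the other classes are also at their lowest.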

How the data were processed

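The 32 ChIP-seq peak lists were deposited with positions on mm9, a score per peak and, by the column order of MACS2, a fold enrichment. The series' text says that replicates were merged. Named in the submitters' processing notes are MACS2, Bowtie and bedtools 2.19.1 for ChIP-seq, and STAR 2.5.0a and featureCounts for RNA. No threshold or control for peak calling is given in the sources. Scores deposited by the authors were used only as percentiles within a list, and the deposited fold values only as medians or for a named peak. Repeated lines were removed. Overlap means at least 1 bp, tested with bedtools 2.31.1 on the same regions. Intervals are exact Clopper-Pearson intervals at 95%.

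The authors deposited RNA as a read count per gene with no normalization, per the file headers. Depth in genes was 46.3 to 54.0 M counts in ES siCtrl, 17.4 to 53.2 M in ES siUbc9 and 39.9 to 54.0 M in MEF shCtrl, 3 libraries each. Counts were tested in R 4.3.3 with edgeR 4.0.16 (filterByExpr, TMM, quasi-likelihood test, two-sided, Benjamini-Hochberg over all genes, adjusted p under 0.05) and, as an alternative, DESeq2 1.42.0. The scripts were tested on simulated data. CPM are counts scaled to the TMM-adjusted library size. Nothing in the labels says that replicates came from separate cultures, so p-values measure the spread between libraries, which may be technical.

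Named regions followed a rule: the 8 with the highest mean SUMO percentile, and 5 each by siCtrl percentile, by all 3 factors, by H3K4me1 and by H3K27me3. The rule also took the 5 highest under no other list, which are among the 8. The members, lists and rules were chosen with earlier results of these data known. Genes at the regions and their sequences were not analysed here, since no mm9 genome or annotation was used. The inputs and ATAC-seq samples were not analysed here. Alternatives tried were a larger overlap, a wider exclusion, the higher-scoring part of the SUMO lists, a wider merge, both SUMO proteins required, and shorter H3K9me3 lists. The level of the gene targeted by the siRNA is not reported here.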

Additional observations from a re-analysis of the deposited data

How the results depend on the processing

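No share of a peak list could be recomputed without a replicate, because each list was made from both. Where a mark had to cover 50% of a region, 8332 regions were chosen, the share under any factor was 1.73% in D4 shCtrl and 2.496% in D4 shUbc9, 79.3% had none of the other ES lists and the median width was 562 bp. With marks and MEF SUMO excluded within 1 kb, 7095 regions were left, of which 17.98% were under siCtrl H3K9me3 and 8.32% under siUbc9, 40.1% of the siCtrl regions were also under siUbc9, and 79.9% had none of the other ES lists. With the higher-scoring part of each SUMO list, 3414 regions were chosen, and these values were 23.8%, 10.2%, 39.1% and 74.4%, with a median width of 592.5 bp. With both SUMO proteins required, 4935 regions were chosen, with 22.5% under siCtrl, 40.4% of these under siUbc9, 75.5% with none of the other ES lists and a median width of 596 bp. With the siCtrl and siUbc9 lists reduced to about the length of the rule's list, the shares were 7.31% and 3.74%, 40.4% of the regions under siCtrl were also under siUbc9, and 90.7% of all had none of the other ES lists. Merging SUMO peaks within 500 bp moved no value beyond its interval. Under every one of these settings the siUbc9 share was below the siCtrl share. The cause of each shift beyond the changed choice itself was not tested.

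The count of changed genes was 6115 with library sizes alone, 7359 with no filter on low counts, 6084 with DESeq2 and 5176 to 7582 when 1 library was left out. With the replicate number as a block 8003 genes were called. Same-numbered siCtrl and siUbc9 libraries correlated in their deviations from the group means by 0.205, 0.162 and 0.039. Each siCtrl library correlated best with the siUbc9 library of its number. In the other direction, siUbc9 replicate 3 correlated best with siCtrl replicate 2 (0.129). The labels do not say that same-numbered libraries were paired, and these values do not decide it.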
